A study of Mus musculus with 3 samples.

Results

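Intronic single-base deletions of A or T are places where a sequenced library lacks 1 adenine or thymine of the mouse reference inside an intron of an annotated transcript. They were taken from 3 lists of insertions and deletions (indels) by a fixed rule: chromosomes 1 to 19, annotated as intronic, with a reference allele of 1 base, A or T, and an alternative allele that removes it. The rule gave 2060 deletions in the union of the lists, of 23347 indels in all. The parental library listed 1192 of them, the Y positive library 1240 and the Y negative library 1255. The lists come from exome-captured genomic DNA of MB49, a bladder cancer cell line of the mouse, grown as cultured cells. The libraries were of the parental line, of a derived line whose genotype label is Y positive and of a derived line whose genotype label is Y NEGATIVE. With 1 library per line, the differences below have no replicate check, and every test of reads compares 2 libraries and not the lines.

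Introns are removed from the transcript by splicing, so most of their bases can change without altering the protein. Runs of A or T are common in introns. When DNA is copied across such a run, the strands can slip and leave the copy 1 base shorter or longer, an error that DNA mismatch repair normally corrects. Polymerases slip on the same runs in PCR, which these libraries went through, per the labels, before and after capture, and aligners place a base lost from a run at the run's first base. An exome library reaches introns mainly in the stretches next to captured exons.

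The lists show the neighbourhood of a deletion only through the reference alleles of the indels there, and those short stretches are printed to show what a run and an isolated base look like in these data. Coordinates are those of the files, which reach 197068017 on chromosome 1, beyond the last gene of GRCm38 at 195291439. They are therefore not mm10 coordinates, and mm9 is the other build that the submitters' processing notes name. Sequences are given 5′ to 3′ as the reference alleles of the files spell them, and each begins with the base before the deleted one. Capitals mark the deleted base and the identical bases read after it. In the first 3 the run may go on beyond what is printed, and in the last 4 the base after the deleted one differs.
chr1:90155661-90155671: cTTTTTTTTTT
chr19:46453966-46453971: tAAAAA
chr4:14932601-14932605: cTTTT
chr4:97799422-97799429: cAcctgtt
chr12:103467069-103467074: cTccct
chr3:94435794-94435798: aTaag
chr5:77836529-77836533: gAgga

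At the first of these, in transcript ENSMUST00000061013, only the parental list held the loss of 1 T, in 42 of 110 reads, next to a second allele that lacks 10 bases of the run. At chr4:14932601 the loss of 1 T was carried by 16 of 29 parental and 10 of 30 Y positive reads. The isolated A of chr5:77836529, in transcript ENSMUST00000046746, was listed as lost in all 3 libraries, in 4 of 11 parental reads, 2 of 6 Y positive reads and 5 of 21 Y negative reads. The isolated bases of chr4:97799422 and chr3:94435794 were each listed in 1 library on 2 reads. Of the 2034 deletions left after all were placed at the first base of their run, 114 had a next base that the files show to be the same as the deleted one, 12 had a different next base, and for 1908 the next base was not in any reference allele. The next base is seen only where a longer reference allele covers it, as at a longer deletion of the same base. The counts of 114 and 12 therefore do not measure how many deletions lie in runs. A longer deletion of the same base was listed at the same place for 114 (5.60%, exact 95% interval 4.65 to 6.69) and an insertion of that base for 29 (1.43%, 0.957 to 2.04). The base before the deleted one was never the same base, as the leftmost placement requires. Before a deleted A it was T in 418, G in 364 and C in 282 of 1064. Before a deleted T it was C in 449, A in 282 and G in 239 of 970.

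The deletions had a median depth of 30 reads in the parental library, 29 reads in Y positive and 30 reads in Y negative, against 9, 13 and 7 reads over all listed indels. A depth of at least 20 reads was reached by 760, 795 and 820 of them. Adenine deletions were 53.2%, 52.1% and 51.6% of the members in the same order. Groups follow the genotype labels. The descriptions of the derived libraries, MBN for Y positive and MBP for Y negative, run the other way if their last letters stand for negative and positive, a reading the labels do not give. Chromosome Y indels numbered 4 (parental), 9 (Y positive) and 0 (Y negative), as the genotype labels have it. A list gives no reads for a place that it does not hold, so whether a missing deletion had reference reads is not known.

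Most of the deletions were heterozygous. At a depth of at least 20, the deposited genotype was heterozygous with 1 alternative allele at 644 of 760 parental (84.7%, exact 95% interval 82.0 to 87.2), 646 of 795 Y positive (81.3%, 78.4 to 83.9) and 687 of 820 Y negative deletions (83.8%, 81.1 to 86.2). Homozygous calls made up 12.1% (9.87 to 14.6), 14.5% (12.1 to 17.1) and 12.8% (10.6 to 15.3). The homozygous share did not pass a two-sided Fisher exact test between any pair of libraries (smallest adjusted p = 0.519 over 3 tests). That test counts each list as a separate set, although many places are in both lists, so it does not compare the same places. Genotypes at the same places are given further below. The other 24, 34 and 28 deletions shared their place with a second alternative allele.

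Homozygosity set these deletions apart from the intronic indels most like them. In the parental library 12.1% of 760 were homozygous, against 39.6% of 202 intronic A or T insertions of 1 base (Fisher exact test over sites, adjusted p = 1.31e-16 over 4 tests) and 23.3% of 602 intronic indels of 2 to 4 bases (Fisher exact test, adjusted p = 1.33e-07). Y positive had 14.5% against 41.1% and 22.3%, and Y negative 12.8% against 38.9% and 21.7%, and these were not tested. Sites are the units of these tests, and they describe the 3 lists only.

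The allele fraction is the number of reads with the deletion over all reads at the place. Heterozygous deletions at a depth of at least 20 had a median allele fraction of 0.454 for parental (exact 95% interval 0.436 to 0.477), 0.470 for Y positive (0.450 to 0.484) and 0.422 for Y negative (0.40 to 0.443). Their middle 80% ran from 0.271 to 0.679, from 0.276 to 0.656 and from 0.250 to 0.673. Between 0.4 and 0.6 lay 43.6%, 47.4% and 37.1% of them. The lowest fractions were 0.128, 0.132 and 0.134, and the highest 0.894, 0.880 and 0.885. Over all heterozygous indels the medians were 0.404, 0.412 and 0.388.

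**Figure D1:**
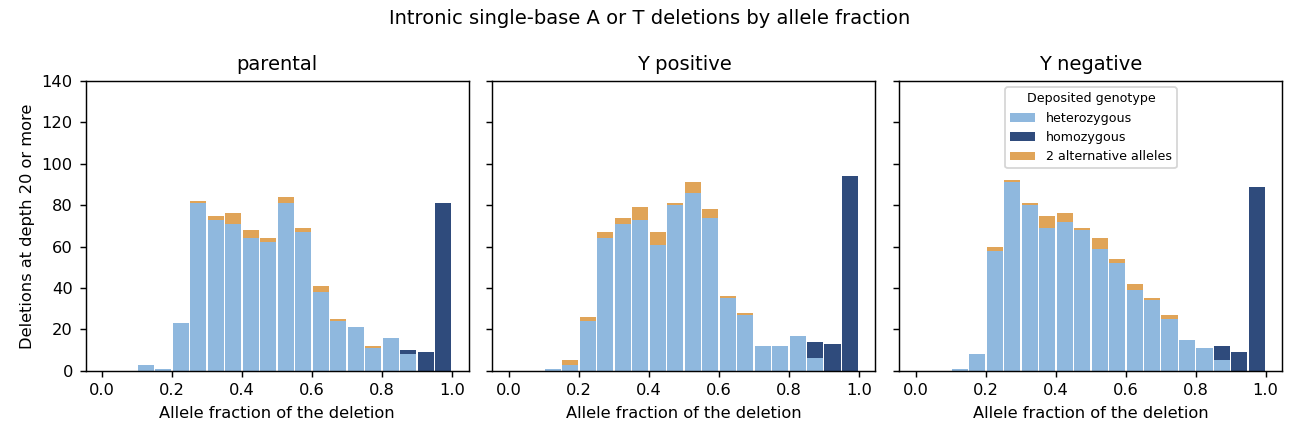
Number of intronic A or T deletions at a depth of at least 20 reads (vertical axis) by allele fraction in bins of 0.05 (horizontal axis), 1 panel per library, stacked by deposited genotype. Heterozygous deletions spread from about 0.2 upwards in every library, and those below 0.3 number 158 in Y negative against 108 in parental and 92 in Y positive.

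The Y negative library listed more deletions of low allele fraction. Heterozygous deletions below 0.3 made up 158 of 687 in Y negative (23%, exact 95% interval 19.9 to 26.3), 108 of 644 in parental (16.8%, 14.0 to 19.9) and 92 of 646 in Y positive (14.2%, 11.6 to 17.2). The Y negative interval overlaps neither of the others, although it begins, at 19.90, just above the end of the parental one, at 19.88. Over all heterozygous indels the shares were 30.4%, 28.9% and 26.98%, in the same order of libraries. Heterozygous deletions found in all 3 lists had medians of 0.50 for parental, 0.50 for Y positive and 0.495 for Y negative. At deletions measured in both of a pair of libraries, the median difference was 0 for every pair.

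Homozygous deletions held few reference reads. At a depth of at least 20, 64 of 92 homozygous deletions in parental had none, as had 69 of 115 in Y positive and 72 of 105 in Y negative. Summed over these deletions, reference reads were 70 of 5976 (1.17%), 129 of 6803 (1.90%) and 100 of 6376 (1.57%). For intronic indels of 2 to 4 bases the same shares were 0.778%, 0.748% and 0.702%, and for A or T insertions 1.53%, 1.95% and 1.64%. Over all indels they were 1.71%, 1.62% and 1.75%, above those of the deletions in parental and Y negative and below in Y positive. The lowest allele fraction with a homozygous genotype was 0.850, 0.875 and 0.850, below the highest heterozygous fraction of each library, so the genotypes overlap between about 0.85 and 0.89. Below 5 reads almost every entry was homozygous, 113 of 124, 106 of 113 and 148 of 157.

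The deepest homozygous deletions held almost no reference read in any library. An A deletion at 13:89717501 in transcript ENSMUST00000022108 was carried by 290 of 290 parental reads, 269 of 269 Y positive reads and 280 of 280 Y negative reads. A T deletion at 3:90015822 in ENSMUST00000029548 had 170 of 171, 178 of 179 and 211 of 211 reads without the base, libraries in the same order. Also on chromosome 3, 1153 bases further on, an A deletion at 3:90016975 in ENSMUST00000170122 was carried by all of its 162, 175 and 169 reads. These are the members homozygous in all 3 libraries with the highest smallest depth, apart from chromosome 18, whose positions are not printed.

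Sharing between the lists was partial. All 3 libraries listed 626 of the 2060 deletions (30.4%, exact 95% interval 28.4 to 32.4). Of the 1215 that reached 20 reads in any library, 517 were in all 3 lists (42.6%, 39.8 to 45.4). In that set 111 were listed in parental alone, 144 in Y positive alone and 181 in Y negative alone. Pairs of lists shared a further 96 (parental and Y positive), 84 (parental and Y negative) and 82 (Y positive and Y negative). Over all indels, all 3 libraries listed 18.2% of 23347, and 48.5% of the 6220 that reached 20 reads in any library. At that depth intronic single-base G or C indels had 58.8% of 393 and intronic indels of 5 or more bases 79.5% of 210. Private and paired counts were not taken over all indels. The share of the deletions in all 3 lists was lower than for intronic A or T insertions, 152 of 301 or 50.5% (Fisher exact test, adjusted p = 0.0138), and higher than for intronic indels of 2 to 4 bases, 384 of 1042 or 36.9% (Fisher exact test, adjusted p = 0.00880). These classes differ in genotype. Among heterozygous entries at that depth the order against insertions was reversed: 59.6%, 56.7% and 54.1% of the deletions in parental, Y positive and Y negative, against 56.25%, 50.9% and 53.6% of the insertions. In Y negative the 2 shares were close. Indels of 2 to 4 bases had 42.9%, 38.5% and 42.3%, and G or C indels 63.4%, 65.8% and 59.3%. Over all heterozygous indels the shares were 57.6%, 56.2% and 55.7%, close to those of the deletions and above that of Y negative. The shares among heterozygous entries were not tested.

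Genotype, depth and allele fraction all went with sharing. Homozygous deletions at a depth of at least 20 were in all 3 lists in 97.8% of 92 parental cases, 93.0% of 115 Y positive cases and 92.4% of 105 Y negative cases. For heterozygous deletions the shares were 59.6% of 644, 56.7% of 646 and 54.1% of 687. For entries below 5 reads they were 8.06% of 124, 10.6% of 113 and 7.64% of 157. With at least 80 reads they reached 73.4% of 154, 75.5% of 147 and 70.3% of 155.

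Within the heterozygous deletions the lowest allele fractions were shared least. From 0.2 to below 0.3 only 18.3% of 104 parental (exact 95% interval 11.4 to 27.1), 29.5% of 88 Y positive (20.3 to 40.2) and 19.5% of 149 Y negative deletions (13.4 to 26.7) were in all 3 lists. From 0.5 to below 0.6 the shares were 81.8% of 148 (74.6 to 87.6), 70.6% of 160 (62.9 to 77.6) and 84.7% of 111 (76.6 to 90.8). Private deletions from 0.2 to below 0.3 had median depths of 61, 46 and 50 reads and shared ones 62, 64 and 48. From 0.3 to below 0.4 private deletions had 36, 36 and 40 reads and shared ones 53, 55 and 54. The part of depth in sharing was not tested. From 0.8 to below 0.9 the shares were 62.5% of 24, 39.1% of 23 and 68.8% of 16, with wide intervals. Of the 158 Y negative heterozygous deletions below 0.3, 92 were private to that list, against 43 of 108 in parental and 37 of 92 in Y positive. The same count was not taken over all indels, so it is not known whether this is particular to the deletions. The Y negative list was also the longest, with 12465 indels against 11709 in parental and 10334 in Y positive.

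**Figure D2:**
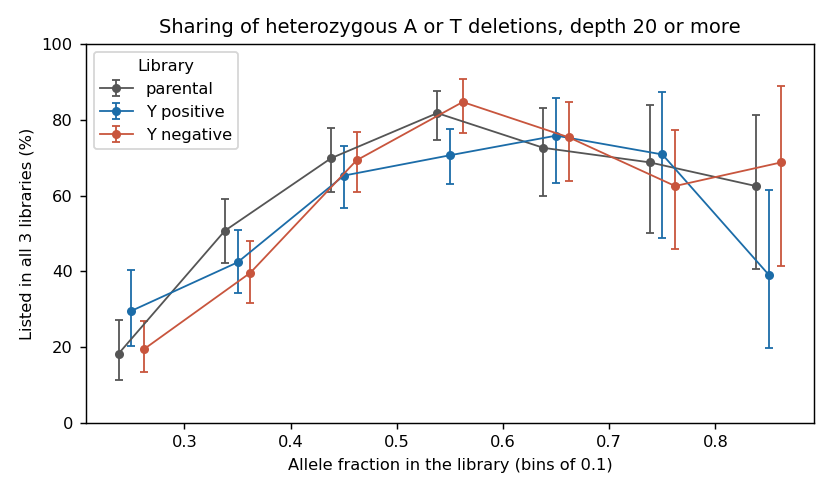
Percentage of heterozygous A or T deletions at a depth of at least 20 that all 3 libraries listed (vertical axis), by allele fraction in the library named (horizontal axis, bins of 0.1, points set apart sideways for legibility). Bars are exact 95% binomial intervals, and the share rises from under 30% in the lowest bin to between 70.6% and 84.7% from 0.5 to 0.6.

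Part of the lack of sharing lay in how the lists write a deletion. Where a place held a loss of 1 base and a longer loss, the files put the loss of 1 base at the end of the longer one, so its start moved. Once each was placed at the first base of its run, the 2060 deletions became 2034, and 26 had been listed under 2 starts. The share in all 3 lists at a depth of at least 20 became 533 of 1195 (44.6%). Over all genotypes, the lower share than for A or T insertions kept its direction (44.6% against 51.5%, Fisher exact test, adjusted p = 0.0378 over 2 tests). So did the higher share than for indels of 2 to 4 bases (39.2%, Fisher exact test, adjusted p = 0.0196). Private deletions at a depth of at least 20 fell from 111 to 104 in parental, from 144 to 134 in Y positive and from 181 to 171 in Y negative. Their median allele fractions after this step were 0.329, 0.356 and 0.286.

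The private deletions with the most supporting reads show this directly. In Y positive all 3 were listed elsewhere under a neighbouring start. An A deletion at 6:69010077 in transcript ENSMUST00000103343 was carried by 104 of 124 Y positive reads, and the same loss stood at 6:69010078 in parental (67 of 115 reads) and Y negative (83 of 153), beside a loss of AA at the same run. At 13:100997498 in ENSMUST00000049789 it was 95 of 115 Y positive reads, with the same loss in 35 of 121 parental reads at 13:100997500. At 11:59186903 in ENSMUST00000061481 it was 63 of 71 Y positive reads, called homozygous, against 51 of 78 parental and 43 of 80 Y negative reads at 11:59186904. The loss of 2 bases there took 16 parental and 23 Y negative reads and was not listed in Y positive.

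In parental and Y negative, 1 of the 3 private deletions with most supporting reads was of this kind. A T deletion at 15:9670229 in ENSMUST00000041840 was carried by 85 of 100 parental reads, and stood at 15:9670230 in 46 of 82 Y positive and 72 of 101 Y negative reads. In Y negative, a T deletion at 14:77651593 in ENSMUST00000022589 was carried by 68 of 112 Y negative reads, and stood at 14:77651592 in 111 of 131 parental and 110 of 123 Y positive reads. The other private ones had low allele fractions. In parental they were a T deletion at 3:159574243 in ENSMUST00000068952 (52 of 197 reads, 0.264) and a T deletion at 12:104003998 in ENSMUST00000046404 (45 of 175 reads, 0.257). In Y negative they were an A deletion at 14:53430750 in ENSMUST00000103583 (53 of 232 reads, 0.228) and a T deletion at 10:78046600 in ENSMUST00000105384 (51 of 181 reads, 0.282). The other lists hold no entry for these 4, and their reads there are not known.

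The spread of allele fraction between libraries was measured at the 439 deletions with 1 alternative allele and at least 20 reads in all 3 libraries. The range from the lowest to the highest of the 3 fractions had a median of 0.104 (exact 95% interval 0.0889 to 0.118), and 73 deletions had a range above 0.2. Over all 2299 such indels the median was 0.0592 (0.0540 to 0.0642). The members are mostly heterozygous, and near-homozygous places hardly vary: at the 78 deletions with a pooled fraction of at least 0.95 the median range was 0.

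Among places with a pooled fraction between 0.2 and 0.8, the deletions spread about as much as most other intronic classes and more than indels of 2 to 4 bases. Their median range was 0.125 over 341 places (exact 95% interval 0.118 to 0.139), with a median lowest depth of 46 reads. Intronic indels of 2 to 4 bases had 0.0981 over 123 places (0.0832 to 0.110) at 42 reads, an interval that does not overlap. Intronic A or T insertions had 0.118 over 50 places (0.0839 to 0.144), single-base G or C indels 0.129 over 77 (0.0932 to 0.160) and indels of 5 or more bases 0.119 over 17 (0.0750 to 0.165). These intervals overlap that of the deletions, and all indels had 0.111 over 1272 places (0.105 to 0.117). A range above 0.2 was seen at 20.8% of the deletions, 22% of the A or T insertions, 29.9% of the G or C indels, 8.13% of the indels of 2 to 4 bases, 11.8% of those of 5 or more bases and at 229 of the 1272 places of all kinds. The classes were not matched on fraction. Heterozygous indels of 2 to 4 bases had medians of 0.303, 0.310 and 0.308, against 0.454, 0.470 and 0.422 for the deletions. Among the deletions the median range was 0.0442 at pooled fractions from 0.2 to below 0.3 (12 places) and 0.108 from 0.3 to below 0.4. It was 0.135 from 0.4 to below 0.5, 0.144 from 0.5 to below 0.6 and 0.128 from 0.6 to below 0.8.

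The spread between libraries was also read against the sampling of reads. The Pearson statistic for equal fractions, divided by its degrees of freedom, averages 1 where reads are drawn independently from equal fractions. It was 1.98 for the deletions, 1.83 for A or T insertions, 1.69 for G or C indels, 0.977 for indels of 2 to 4 bases, 1.95 for those of 5 or more bases and 1.61 for all indels. Without the deletion at 16:29261083 described below it was 1.77 for the deletions. It was 2.22 at deleted A and 1.71 at deleted T, and 16:29261083 is a deleted A. By the lowest depth of a place it was 1.54 from 20 to below 40 reads, 1.70 from 40 to below 80 and 3.37 from 80 up, or 2.36 without that deletion. By the pooled fraction it was 0.461 from 0.2 to below 0.3, 1.73 from 0.3 to below 0.4, 1.76 to below 0.5 and 1.92 to below 0.6. From 0.6 to below 0.8, where 16:29261083 lies, it was 3.07. These are descriptions, with no test.

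**Figure D3:**
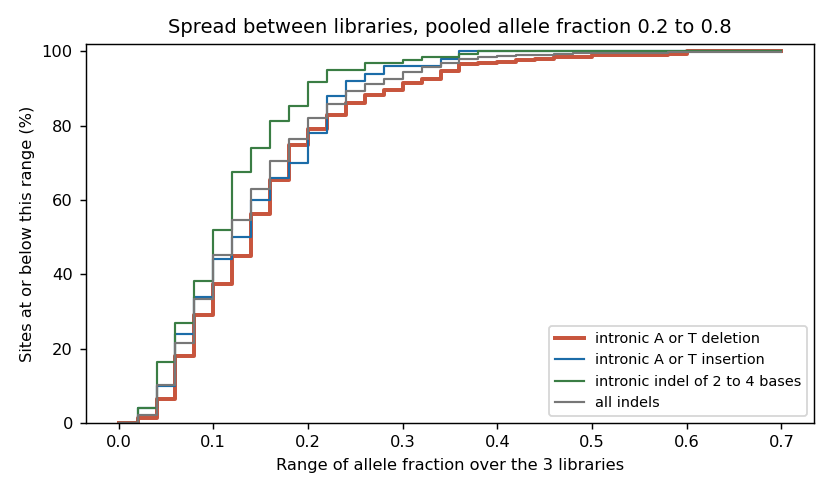
Cumulative percentage of places (vertical axis) by the range of allele fraction over the 3 libraries (horizontal axis), for places with at least 20 reads in every library and a pooled fraction between 0.2 and 0.8. The curve of the 341 A or T deletions lies to the right of that of the 123 indels of 2 to 4 bases, with medians of 0.125 and 0.0981. The classes were not matched on fraction within these limits.

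Some deletions held the same low fraction in every library. A T deletion at 15:99822132 in transcript ENSMUST00000023766 was carried by 46 of 151 parental reads, 52 of 179 Y positive reads and 48 of 152 Y negative reads, fractions of 0.305, 0.291 and 0.316. An A deletion at 5:146680829 in ENSMUST00000035918 had 88 of 268, 80 of 221 and 84 of 250 reads without the base, fractions of 0.328, 0.362 and 0.336. Both lie below the median of shared heterozygous deletions in all 3 libraries. These and 4:146886398, below, are the steadiest among the deepest heterozygous deletions.

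Allele fractions were then compared read by read between pairs of libraries, with a two-sided Fisher exact test per place and Benjamini-Hochberg adjustment over every testable indel of the pair. A place was testable where both lists held it with 1 alternative allele and 20 or more reads. In all, 686 deletions were tested in at least 1 pair and 20 passed an adjusted p of 0.05, 16 in 1 pair and 4 in 2 pairs. The 3 comparisons share libraries, so their calls are not independent. Of the 20, 1 lies on chromosome 18 and is not given by position.

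Between Y positive and parental, 10 of 528 deletions passed (1.89%), against 0.874% of all 2745 indels tested. The allele fraction was higher in Y positive at 9 of the 10 (0.729% of all indels tested passed in that direction) and lower at 1 (0.146%). Y negative and parental differed at 3 of 524 (0.573%), against 0.302% of all 2651 indels, with 2 higher in Y negative (0.226%) and 1 lower (0.0754%). Y negative and Y positive differed at 11 of 512 (2.15%), against 0.794% of all 2645 indels, with 3 higher (0.265%) and 8 lower in Y negative (0.529%). Before adjustment, 53, 42 and 49 deletions had a p under 0.05, or 10.04%, 8.02% and 9.57%, against 6.23%, 5.47% and 6.20% of all indels tested. Other intronic indels passed at 1 of 791, 3 of 740 and 2 of 733 places.

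The shares were also taken over intermediate fractions alone. Over places with a pooled fraction between 0.2 and 0.8, 10 of 422, 3 of 424 and 11 of 408 deletions passed, or 2.37%, 0.708% and 2.70%. All indels there passed at 1.46%, 0.454% and 1.30%, and intronic indels of 2 to 4 bases at 0 of 191, 0 of 170 and 0 of 179 places, by the same Fisher exact test. Intronic A or T insertions passed at 1 of 60, 1 of 52 and 1 of 57 places, or 1.67%, 1.92% and 1.75%. Other intronic indels of every kind passed at 0.273%, 0.893% and 0.576%, so that in Y negative against parental both shares were above that of the deletions. The median of the lower depth was 46, 46 and 45 reads for the deletions and 37, 42 and 38 for the indels of 2 to 4 bases. Fractions were not matched either, and those of heterozygous indels of 2 to 4 bases were lower, as given above. Whether the deletions differ from other indels in this share was not tested.

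**Figure D4:**
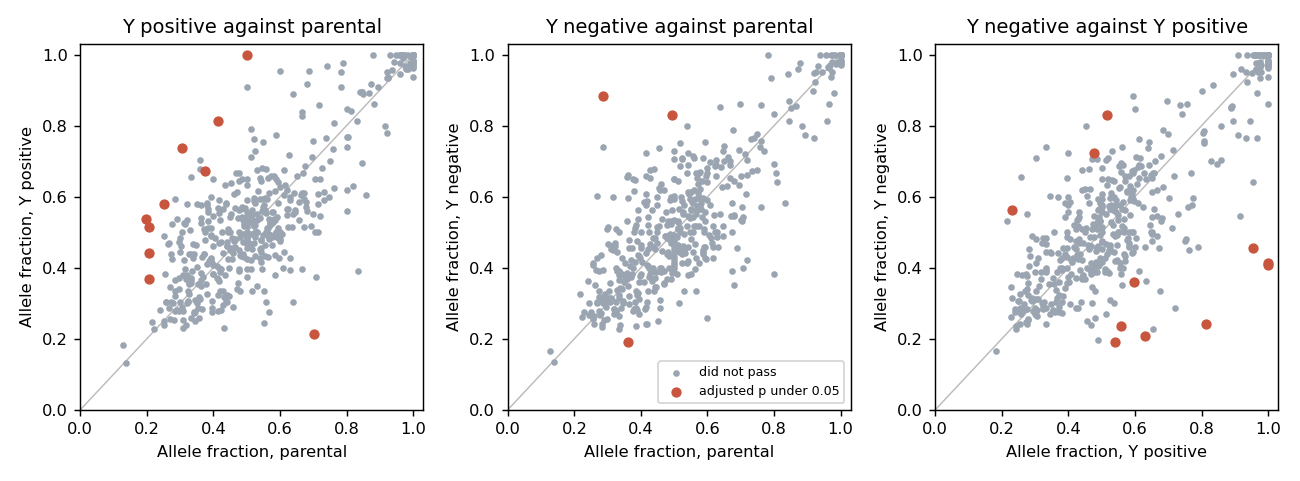
Allele fraction of each tested A or T deletion in 1 library (vertical axis) against another (horizontal axis), 1 panel per pair of libraries, with the line of equal fractions. Red points passed an adjusted p of 0.05 (10 of 528, 3 of 524 and 11 of 512), and most deletions lie near the line.

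The largest difference in reads was at 16:29261083, an A deletion preceded by G in transcript ENSMUST00000075806. Parental carried it in 59 of 118 reads (0.50, exact 95% interval 0.407 to 0.593), Y positive in 160 of 160 (1, 0.977 to 1) and Y negative in 73 of 179 (0.408, 0.335 to 0.484). Y positive stood alone, with no reference read, and the other intervals overlap. The Fisher exact test gave an adjusted p of 4.48e-24 against parental and 4.48e-36 against Y negative. For Y negative and parental it gave an adjusted p of 1.

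At 8:41984710, an A deletion in ENSMUST00000057784, Y positive was again the high library, with 35 of 43 reads (0.814) against 22 of 53 (0.415) in parental and 14 of 58 (0.241) in Y negative. The Fisher exact test gave an adjusted p of 0.0124 against parental and 6.09e-06 against Y negative. The A deletion at 12:119279688 in ENSMUST00000084806 was carried by 24 of 24 Y positive and 12 of 29 Y negative reads (Fisher exact test, adjusted p = 0.000602). Parental had 14 of 18 reads there, too few for the test. The T deletion at 15:101646448 in ENSMUST00000023712 was carried by 49 of 73 Y positive, 31 of 83 parental and 41 of 90 Y negative reads, and passed against parental alone (Fisher exact test, adjusted p = 0.0316). At 8:28563649, a T deletion in ENSMUST00000081321, the order was 54 of 97 in Y positive, 43 of 112 in parental and 32 of 135 in Y negative reads, and only the outer libraries differed (Fisher exact test, adjusted p = 0.000315).

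Several deletions that were higher in Y positive than in parental were not listed in Y negative at all. A T deletion at 10:102857605 in ENSMUST00000074204 was carried by 58 of 108 Y positive and 22 of 111 parental reads (Fisher exact test, adjusted p = 8.57e-05). One at 3:45187974 in ENSMUST00000051181 had it in 55 of 95 Y positive and 28 of 112 parental reads (adjusted p = 0.000529 by the same Fisher exact test). At 5:31609323 in ENSMUST00000072228 the T was missing from 39 of 53 Y positive and 15 of 49 parental reads (adjusted p = 0.00462, Fisher exact test). At 5:76036909 in ENSMUST00000005815 it was missing from 48 of 109 Y positive and 32 of 155 parental reads (adjusted p = 0.0121, Fisher exact test). The parental fractions of these 4 lay between 0.198 and 0.306, below the parental heterozygous median, which the choice of calls higher in Y positive favours. The remaining calls of this pair, 6:69726055 and 19:53892376, had parental fractions of 0.208 and 0.205 and were also missing from the Y negative list.

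In the opposite direction, an A deletion at 5:76670828 in ENSMUST00000031148 fell from 26 of 37 parental reads to 6 of 28 Y positive reads (Fisher exact test, adjusted p = 0.0213), with Y negative between them at 25 of 47. At some others Y negative was the high library. An A deletion at 1:62285271 in ENSMUST00000046451 had 10 of 35 parental reads, 19 of 32 Y positive reads and 23 of 26 Y negative reads, and passed between Y negative and parental (Fisher exact test, adjusted p = 0.0134). It had the widest range of all members, 0.599. The A deletion at 19:40076252 in ENSMUST00000049178 was found in 38 of 88 parental reads, 18 of 78 Y positive reads and 58 of 103 Y negative reads, and its highest and lowest libraries differed (Fisher exact test, adjusted p = 0.00190). The T deletion at 4:45286206 in ENSMUST00000044773 had 90 of 166, 64 of 134 and 126 of 174 reads, and Y negative passed against Y positive (adjusted p = 0.00241, Fisher exact test).

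In transcript ENSMUST00000036019, deletions 1633 bases apart moved in opposite directions. The T deletion at 5:97137579 was carried by 35 of 71 parental reads, 31 of 60 Y positive reads and 54 of 65 Y negative reads, so Y negative was high against both (Fisher exact test, adjusted p = 0.0225 against parental and 0.0325 against Y positive). The T deletion at 5:97139212 was carried by 36 of 57 Y positive and 11 of 53 Y negative reads, so Y negative was low (Fisher exact test, adjusted p = 0.00188), and the parental list did not hold it. At 1:63598291 in ENSMUST00000087374 a T was missing from 64 of 107 Y positive and 48 of 133 Y negative reads (Fisher exact test, adjusted p = 0.0349), with parental at 50 of 127.

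A cluster on chromosome 4, in transcript ENSMUST00000063704, set a moving deletion among steady ones. The T deletion at 4:146886442 had a parental fraction of 0.362 (199 reads), a Y positive fraction of 0.539 (178 reads) and a Y negative fraction of 0.190 (200 reads). By the Fisher exact test Y negative was lower than Y positive (adjusted p = 1.63e-09) and than parental (adjusted p = 0.0445), while Y positive and parental did not pass (adjusted p = 0.0674). A C deletion 7 bases before it, no member of the set, had fractions of 0.254, 0.276 and 0.268, and another 8 bases after it had 0.239, 0.281 and 0.259. The T deletion at 4:146886398, 44 bases before, had 0.222, 0.228 and 0.262. The 4 places lie within 52 bases of each other, and of these only 4:146886442 passed a test in any pair.

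The widest ranges of the remaining members came at lower depth and did not pass the test. An A deletion at 13:51543156 in ENSMUST00000021898 was carried by 6 of 21 parental reads, 8 of 24 Y positive reads and 17 of 23 Y negative reads, and its smallest adjusted p by the Fisher exact test was 0.339. The A deletion at 17:88048855 in ENSMUST00000053577 had 20 of 24, 16 of 41 and 21 of 36 reads without the base, with an adjusted p of 0.0694 between Y positive and parental. At depths of 21 to 41 reads, differences of 0.453 and 0.443 in allele fraction thus did not pass after adjustment.

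Deposited genotypes mostly matched across libraries. Of 451 deletions with at least 20 reads in all 3, 337 were heterozygous in all 3 (74.7%), 82 homozygous in all 3 (18.2%) and 10 held 2 alternative alleles in all 3. A further 20 were homozygous in some and heterozygous in others (4.43%), and the last 2 held 2 alternative alleles in some libraries only. Among the 20, Y positive alone was homozygous at 8, parental alone at 1 and Y negative alone at 1. Parental alone was heterozygous at 6, Y negative alone at 3 and Y positive alone at 1.

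Such a change of genotype often came with a small change of fraction. The range was below 0.2 at 13 of the 20 and as small as 0.0364. With at least 50 reads in every library there were 4. At 13:9613560, a T deletion in ENSMUST00000062376, the genotype was heterozygous in parental (52 of 60 reads) and homozygous in Y positive (49 of 55) and Y negative (47 of 55), although the Y negative fraction, 0.855, was the lowest. At 16:57045516, a T deletion in ENSMUST00000067173, it was heterozygous in parental (62 of 71) and homozygous in Y positive (79 of 86) and Y negative (70 of 73). At 7:14821847, an A deletion in ENSMUST00000076576, only Y positive was homozygous, with 60 of 67 reads against 55 of 65 and 48 of 59. Of the 4, only 16:29261083 passed the Fisher exact test.

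Chromosomes differed in how many of these deletions were homozygous. At a depth of at least 20 the homozygous share in parental was 16 of 32 on chromosome 18, 36.5% of 52 on chromosome 3, 25.7% of 35 on chromosome 8 and 23.8% of 42 on chromosome 2. It was 0% on chromosomes 7, 12 and 17, with 39, 29 and 26 deletions. Y positive and Y negative had 35.8% of 53 and 33.3% of 57 on chromosome 3, and 30.8% of 39 and 31.6% of 38 on chromosome 8. On chromosome 5, with 61, 62 and 57 deletions, only 1, 2 and 1 were homozygous. These shares were not tested.

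**Figure D5:**
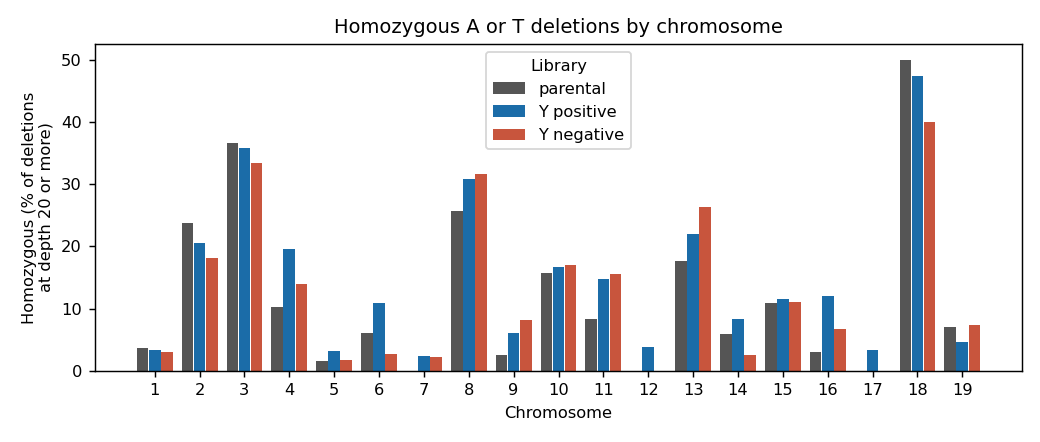
Homozygous calls as a percentage of A or T deletions at a depth of at least 20 (vertical axis), for each of the 19 autosomes (horizontal axis) and each library. Chromosome 18 has the highest parental share, 16 of 32, followed by chromosomes 3 and 8 with 36.5% and 25.7%, and chromosomes 7, 12 and 17 have none in parental.

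Stretches of chromosomes 3, 2 and 11, chosen because earlier results of these data showed few heterozygous indels there, were also counted. The deletions are themselves indels of these lists, so a high homozygous share there follows from the choice. At a depth of at least 20, the stretches held 11 of the 19 homozygous parental deletions of chromosome 3 and 8 of the 10 of chromosome 2. From 85 to 95 Mb on chromosome 3, 11 of 13 parental deletions, 10 of 12 Y positive ones and 11 of 15 Y negative ones at that depth were homozygous. From 80 to 95 Mb on chromosome 2 it was 8 of 10, 7 of 9 and 6 of 9. From 40 to 55 Mb on chromosome 11 only 2 of 4, 2 of 3 and 3 of 3 deletions were at hand.

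The deletions were spread over many genes. By the first transcript named in each entry they fell in 1637 transcripts, of which 1360 held 1, 196 held 2 and 81 held 3 or more. The most was 8, in ENSMUST00000099992 on chromosome 2, none of which reached 20 reads in any library and 1 of which was in all 3 lists. Outside chromosome 18, ENSMUST00000016680 and ENSMUST00000033919 on chromosome 8 and ENSMUST00000092638 on chromosome 10 held 6 each. Of the 6 in ENSMUST00000016680, 4 were in all 3 lists, and 1 reached 20 reads. Few deletions lay close to another of the set: 49 of 2034 had one within 150 bases. Counting listed indels of every kind, 212 of 2060 (10.3%) had another at the same place or within 10 bases. Neither share was taken over all indels.

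Measures of read quality differed in both directions from those of all indels. At a depth of at least 20, 92.8% of the parental deletions, 92.2% of those in Y positive and 92.2% of those in Y negative had a mapping quality of 60, against 81.6%, 81.6% and 81.8% of all indels. A strand odds ratio above 3, the authors' measure of reads that favour 1 strand, was found at 5.26%, 7.17% and 5.49% of the deletions and at 13.4%, 15.3% and 11.8% of all indels. The call quality per read of depth, also the authors' value, was lower, with medians of 7.84, 8.66 and 7.17 for the deletions and 11.05, 11.16 and 10.68 for all indels. These measures were not split by genotype. Homozygous calls were 12.1%, 14.5% and 12.8% of the deletions against 27.5%, 27.4% and 26.1% of all indels. Deleted A and deleted T, the same event read from opposite strands, were alike in most values: heterozygous medians were 0.453 and 0.455 in parental, 0.480 and 0.461 in Y positive and 0.418 and 0.423 in Y negative. The homozygous shares were 11.7% and 12.5%, 15.7% and 13.1%, and 12.4% and 13.3%. These values were not tested.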

How the data were processed

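Exome-captured DNA of 3 MB49 libraries was read, per the labels' protocols, as paired-end Illumina reads. The submitters' processing notes name BWA and Picard without versions, and the builds mm9 and mm10. Which variant caller was used is not given in the sources used here. The deposited files hold 1 library's indels each, all with the filter value PASS. The deposited read counts per allele and depths are whole numbers. The authors' phred-scaled quality score was not used as a filter. Genotypes are as deposited.

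Entries were matched on chromosome, start, reference and alternative allele. Allele fractions, exact (Clopper-Pearson) 95% intervals and order-statistic intervals of medians were computed with python 3.11.15 and scipy 1.17.1. They cover counting error only, since reads carry no molecular identifiers. Fisher exact tests per place were adjusted over all indels tested in a pair, threshold 0.05, at a depth of at least 20, and checked on simulated data. The simulated reads were drawn independently. That check therefore does not cover a spread beyond the sampling of reads, such as the Pearson statistic of 1.98 for the deletions describes. The members, classes and stretches were chosen with earlier results of these data known. Named places were the 8 smallest adjusted p-values per pair, the 6 widest and 3 steadiest ranges, the 3 deepest homozygous ones, the 3 private ones per library with most reads carrying the deletion, genotype changes at 50 reads or more and the 5 transcripts with most members. Calls beyond the 8 were named after their values were seen, and positions on chromosome 18 are not given. Of 3754 transcript identifiers of the members, 0 matched a gene symbol in the table used here. The genome sequence of the files' build was not used here. Alternatives changed the depth minimum, the matching of positions, the handling of places with 2 alternative alleles or a nearby indel, the homozygosity rule and the adjustment.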

Additional observations from a re-analysis of the deposited data

How the results depend on the processing

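No pairing of samples was possible because each group held 1 library, and for the same reason no library could be left out. Of 45 alternative values, 37 stayed close to the reported one and 0 reversed. Among the 37, fractions over the deposited depth gave the same values as those reported, so that alternative changed nothing. Under Benjamini-Yekutieli adjustment 4 deletions differed between Y positive and parental instead of 10. Between Y negative and parental that adjustment of the Fisher exact test left 0 instead of 3, with 42 of 524 (8.02%) at an unadjusted p under 0.05, against 5.47% of all indels, and the other alternatives gave 2 to 4. The share listed in all 3 libraries, 42.6%, was 30.4% at any depth, 46.9% at a depth of 30 or more and 46.03% without deletions that have another indel within 10 bases. Matching on the leftmost position, chosen after the data were seen, gave 44.6%, as did matching within 2 bases. Counting only deletions in all 3 lists, the heterozygous median became 0.50 for parental, 0.50 for Y positive and 0.495 for Y negative. Depth limits the tests: 13:51543156 and 17:88048855, with wide ranges at 21 to 41 reads, did not pass. A deletion missing from a list has no reads to compare.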
